A study of Danio rerio with 4 samples.

Results

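The glutamate receptor genes of zebrafish were followed in whole embryos lacking nexilin (nexn), a Z-disc protein of striated muscle. Members were the genes whose symbol begins with gria, grik, grin or grm and a receptor number, and which had at least 10 reads in at least 2 libraries. 36 of 32057 genes matched by symbol, and all 36 passed the read limit. They comprise 8 AMPA, 4 kainate and 12 NMDA receptor genes and 4, 3 and 5 genes of metabotropic groups I, II and III.

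Glutamate is the main excitatory transmitter of the vertebrate brain and retina. Ionotropic receptors are tetrameric cation channels: AMPA receptors carry fast excitation, kainate receptors tune it before and after the synapse, and NMDA receptors pass calcium once the membrane is depolarised and a co-agonist is bound. Metabotropic receptors act through G proteins, group I through phospholipase C and groups II and III by inhibition of adenylate cyclase. Many of these genes have a pair of copies in zebrafish, marked a and b.

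RNA-sequencing was done on nexn-/- and nexn+/+ embryos at 72 hpf, each genotype being represented by 2 libraries made from pools of 25 embryos. The nexn-/- line carries a small CRISPR/Cas9 deletion in an early exon of nexn, in every cell, that brings in a premature stop codon. Per the study's methods, nexn-/- embryos came from an incross of nexn-/- adults and nexn+/+ embryos from an incross of nexn+/+ adults, the parents being offspring of a heterozygous pair, so parentage and genotype cannot be told apart. The labels name no treatment for either group, and they call the libraries biological replicates without saying whether the embryos came from separate clutches, so p-values measure the spread between these libraries.

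The libraries held between 19413597 and 21956272 estimated counts. The targeted gene nexn had 40.2 and 51.0 CPM (counts scaled to a common library size) in nexn-/- libraries, against 96.3 and 75.4 CPM in nexn+/+ libraries (log2(FC) −0.91, adjusted p = 0.00737, edgeR). Reads of the deleted transcript outside the deletion are still counted. Levels in CPM were scaled by TMM, which sets libraries to a common level over most genes. The limits for a call were an adjusted p below 0.05 in edgeR's quasi-likelihood test and a log2(FC), the log2 fold change of nexn-/- over nexn+/+, beyond 0.5 in either direction. Markers of muscle set the nexn+/+ libraries apart from each other, on either side of the nexn-/- libraries. The summed level of 15 skeletal muscle markers was 62502 and 66848 CPM in nexn-/- libraries, against 107321 and 44816 CPM in nexn+/+ libraries.

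Most glutamate receptor genes were lower in nexn-/- embryos. Of the 36 members, 28 (77.8%) were called lower and 0 higher, while 13.9% of the 20312 genes tested were called lower and 16.7% higher. Unadjusted p-values under 0.05 in the higher direction were also found for 0 members, and DESeq2 and limma-voom likewise called 28 lower and 0 higher. The median log2(FC) of the members was −0.93, with a range of −2.12 to 0.52, against a median of 0.02 over all genes tested. For 32 members the highest nexn-/- library was under the lowest nexn+/+ library, which was the case for 34.4% of all genes tested. The summed level of the members was 772 and 747 CPM in nexn-/- libraries, against 1536 and 1558 CPM in nexn+/+ libraries. In the deposited TPM values, which are also scaled to transcript length, the sum was 268 and 250 TPM in nexn-/- libraries, against 394 and 490 TPM in nexn+/+ libraries. On both scales the libraries of the genotypes did not overlap.

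The count of 28 depended on both nexn-/- libraries. Without nexn-/- replicate 1 or without nexn-/- replicate 2, edgeR called 0 members, and 4 genes of all tested, when the lone nexn-/- library was assumed to vary like the nexn+/+ pair. The members' median log2(FC) was then −0.95 and −0.89, against 0.019 and 0.014 over all genes tested. In these fits 30 and 29 members had a log2(FC) below −0.5, but the share of all genes below −0.5 was not computed. Leaving out nexn+/+ replicate 1 gave 27 members called lower. Leaving out nexn+/+ replicate 2 gave 26 lower and 1 higher (grm3). The count also depended on how the libraries were scaled. With plain library size 20 members were called lower, the 8 lost being gria2a, gria3a, gria4b, grik1b, grin2cb, grm2a, grm4 and grm8a. With the single gene rpl13 as reference 18 were, grik4 and grin2ca being lost as well. The share of all genes tested that was called lower fell too, from 13.9% with TMM to 9.25% with library size and 7.22% with rpl13.

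Abundant and scarce members differed in how often they were called. All 26 members that averaged at least 10 CPM were called lower, against 2 of the 10 below this level (grik1a and grin2cb). The share of all genes tested that was called lower was not computed by level. The 8 members that were not called had mean levels between 0.938 and 7.95 CPM and at most 222 counts in any library. Their median standard error (SE) was 0.30 on the log2 scale, against 0.13 for the 28 called lower. Taken over the 8 genes, the 95% intervals spanned −1.10 to 1.49, so that a fall of the size of the members' median lay inside the interval of some of them.

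**Figure D1:**
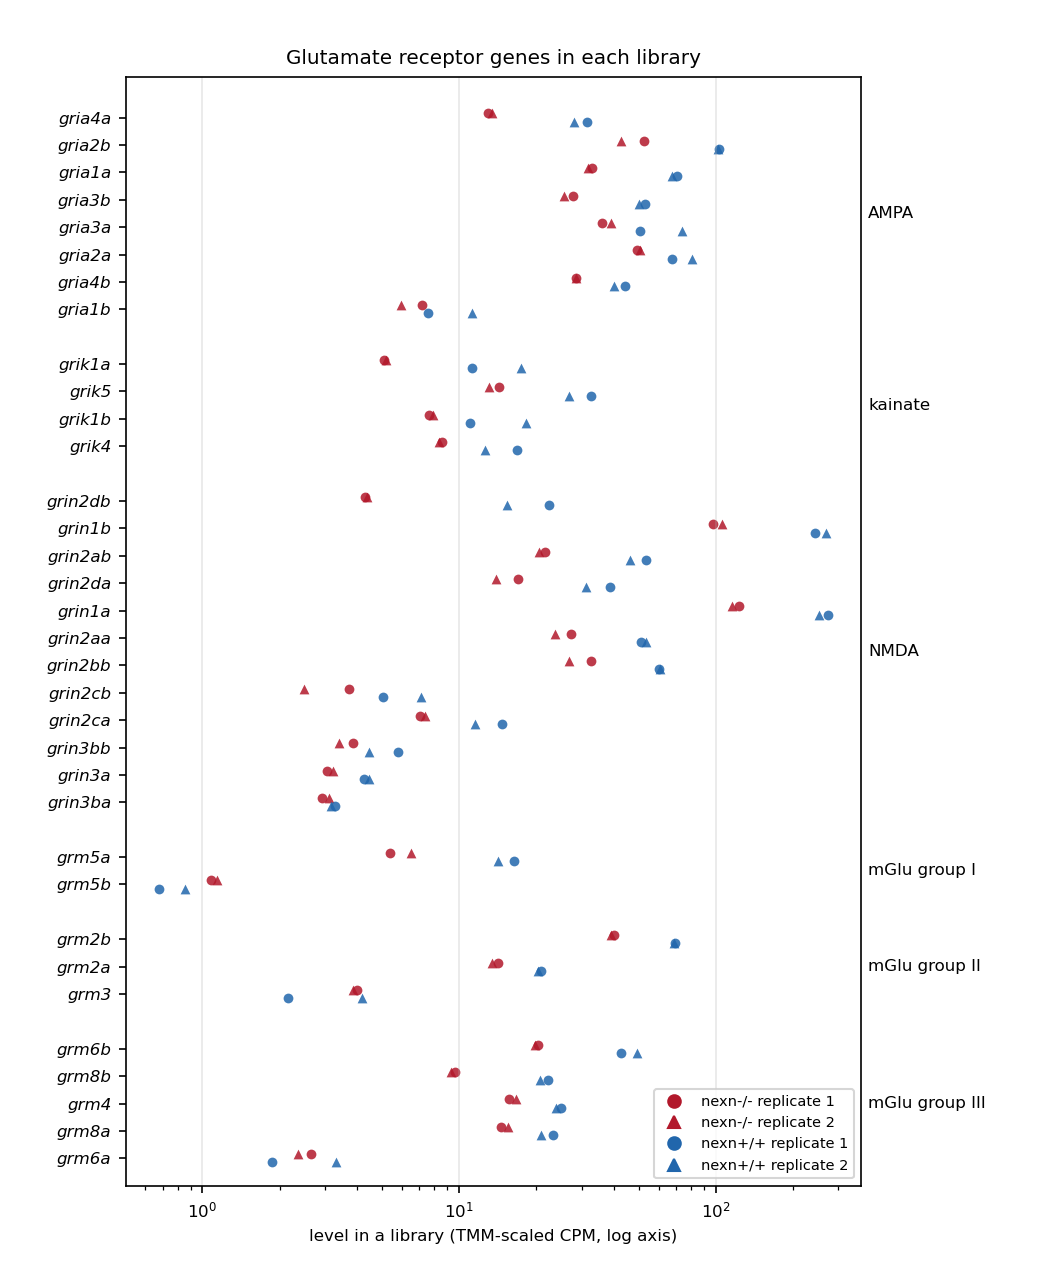
Level of 34 members in each library, in TMM-scaled CPM on a log axis, with genes grouped by receptor class and ordered by log2(FC) within a class. Red symbols are nexn-/- libraries and blue symbols nexn+/+ libraries (circles replicate 1, triangles replicate 2). In 31 of these genes both red symbols lie left of both blue symbols, and the 3 exceptions lie below 5 CPM.

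AMPA receptor genes, which encode the subunits GluA1 to GluA4, were lower as a class: 7 of 8 were called lower, with a median log2(FC) of −0.84. gria4a, a GluA4 gene, had 12.9 and 13.4 CPM in nexn-/- libraries, against 31.5 and 27.9 CPM in nexn+/+ libraries (log2(FC) −1.17, SE 0.13, adjusted p = 0.00151, edgeR). gria2b had 52.4 and 42.5 CPM in nexn-/- libraries, against 103 and 102 CPM in nexn+/+ libraries (log2(FC) −1.11, SE 0.13, adjusted p = 0.00179, edgeR). GluA2, which gria2b and gria2a encode, is the subunit that makes AMPA channels poorly permeable to calcium. gria1a had 32.9 and 31.8 CPM in nexn-/- libraries, against 70.4 and 67.2 CPM in nexn+/+ libraries (log2(FC) −1.09, SE 0.10, adjusted p = 0.00128, edgeR). gria3b had 27.7 and 25.5 CPM in nexn-/- libraries, against 53.0 and 50.0 CPM in nexn+/+ libraries (log2(FC) −0.95). In these 4 genes the level in nexn-/- embryos was between 44.3% and 51.7% of the nexn+/+ level.

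The other AMPA genes fell less or were not called. gria3a, the AMPA gene with the highest TPM, had 36.0 and 39.1 CPM in nexn-/- libraries, against 50.5 and 73.8 CPM in nexn+/+ libraries (log2(FC) −0.73, SE 0.18, adjusted p = 0.0222, edgeR). In TPM it had 36.6 and 33.9 in nexn-/- libraries, against 45.7 and 66.8 in nexn+/+ libraries. The genotypes did not overlap on either scale, but the nexn+/+ libraries lay far apart, and the call was lost without nexn+/+ replicate 2. gria2a had 49.2 and 50.8 CPM in nexn-/- libraries, against 67.7 and 80.8 CPM in nexn+/+ libraries (log2(FC) −0.57). gria4b had 28.6 and 28.5 CPM in nexn-/- libraries, against 44.3 and 40.2 CPM in nexn+/+ libraries (log2(FC) −0.56). Both were called at adjusted p = 0.0124 and 0.00821 by edgeR, but lie close to the fold limit, and gria2a lost its call without nexn+/+ replicate 2 and gria4b without nexn+/+ replicate 1. gria1b, the scarcest AMPA gene, had 7.13 and 5.95 CPM in nexn-/- libraries, against 7.53 and 11.2 CPM in nexn+/+ libraries, and was not called (log2(FC) −0.52, SE 0.24, adjusted p = 0.142, edgeR).

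All 4 kainate receptor members were called lower, with a median log2(FC) of −1.01. grik1a, a GluK1 gene, had 5.11 and 5.21 CPM in nexn-/- libraries, against 11.2 and 17.4 CPM in nexn+/+ libraries (log2(FC) −1.47, SE 0.24, adjusted p = 0.00514, edgeR). grik5, the kainate gene with the highest TPM, had 14.3 and 13.1 CPM in nexn-/- libraries, against 32.7 and 26.8 CPM in nexn+/+ libraries (log2(FC) −1.11, SE 0.14, adjusted p = 0.00236, edgeR). grik5 and grik4 encode the high-affinity subunits GluK5 and GluK4, which form channels only together with GluK1 to GluK3. grik1b had 7.63 and 7.92 CPM in nexn-/- libraries, against 11.0 and 18.1 CPM in nexn+/+ libraries (log2(FC) −0.91, SE 0.25, adjusted p = 0.0304, edgeR). grik4 had 8.57 and 8.35 CPM in nexn-/- libraries, against 16.8 and 12.6 CPM in nexn+/+ libraries (log2(FC) −0.80, SE 0.19, adjusted p = 0.0171, edgeR). No kainate member overlapped between genotypes, and the call of grik1b was lost without nexn+/+ replicate 2. GRIK2 and GRIK3 are further kainate genes that are listed in capitals and so are no members. GRIK2 was called lower, whereas GRIK3 was not called and overlapped, with 5.43 and 3.67 CPM in nexn-/- libraries, against 4.99 and 5.95 CPM in nexn+/+ libraries.

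NMDA receptor genes held the largest fall among the members, and subunit types differed in how many were called. All 9 members for the GluN1 and GluN2 subunits were called lower (median log2(FC) −1.14), whereas 0 of 3 GluN3 genes were (median −0.47). GRIN2B, a further GluN2 gene that is listed in capitals and so is no member, was not called (log2(FC) −0.10, adjusted p = 0.750, edgeR). GluN1, encoded by grin1a and grin1b, binds glycine or D-serine and is present in every NMDA receptor. grin1a, the NMDA gene with the highest TPM, had 123 and 116 CPM in nexn-/- libraries, against 272 and 252 CPM in nexn+/+ libraries (log2(FC) −1.14, SE 0.12, adjusted p = 0.00136, edgeR). In TPM it had 46.0 and 41.0 in nexn-/- libraries, against 70.0 and 78.5 in nexn+/+ libraries. grin1b had 97.6 and 105 CPM in nexn-/- libraries, against 242 and 269 CPM in nexn+/+ libraries (log2(FC) −1.33, SE 0.12, adjusted p = 0.00126, edgeR). Both GluN1 genes separated the genotypes by far more than the libraries of a genotype differed.

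GluN2 subunits bind glutamate and set the kinetics of the channel. grin2db, a GluN2D gene, had 4.31 and 4.37 CPM in nexn-/- libraries, against 22.4 and 15.4 CPM in nexn+/+ libraries. Its log2(FC) of −2.12 (SE 0.22, adjusted p = 0.00146, edgeR) was the lowest of the 36 members, and its level was 23.1% of that in nexn+/+ embryos. Its paralogue grin2da had 17.0 and 13.9 CPM in nexn-/- libraries, against 38.5 and 31.1 CPM in nexn+/+ libraries (log2(FC) −1.18, SE 0.16). GluN2D gives slowly closing channels and is known in mammals as an early, embryonic subunit.

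The GluN2A genes grin2aa and grin2ab encode the subunit that dominates many mature mammalian synapses. grin2ab had 21.7 and 20.5 CPM in nexn-/- libraries, against 53.3 and 46.5 CPM in nexn+/+ libraries (log2(FC) −1.24, SE 0.12). grin2aa had 27.3 and 23.7 CPM in nexn-/- libraries, against 50.9 and 53.6 CPM in nexn+/+ libraries (log2(FC) −1.04, SE 0.12). grin2bb, a gene of the slower GluN2B subunit, had 32.6 and 26.9 CPM in nexn-/- libraries, against 60.2 and 60.6 CPM in nexn+/+ libraries (log2(FC) −1.02, SE 0.12). These 3 genes did not overlap between genotypes.

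The GluN2C genes, whose subunit is typical of cerebellar granule cells in mammals, were scarcer. grin2ca had 7.04 and 7.39 CPM in nexn-/- libraries, against 14.7 and 11.5 CPM in nexn+/+ libraries (log2(FC) −0.86, SE 0.19, adjusted p = 0.0131, edgeR). grin2cb had 3.72 and 2.49 CPM in nexn-/- libraries, against 5.04 and 7.11 CPM in nexn+/+ libraries (log2(FC) −0.97, SE 0.30, adjusted p = 0.0450, edgeR), the adjusted p nearest to the limit among the called members.

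GluN3 subunits bind glycine and lower the calcium flow of NMDA receptors. grin3bb, the GluN3 gene with the largest log2(FC), had 3.86 and 3.41 CPM in nexn-/- libraries, against 5.78 and 4.43 CPM in nexn+/+ libraries (log2(FC) −0.49, 95% interval −1.08 to 0.10). grin3a had a log2(FC) of −0.47 (95% interval −1.02 to 0.09) and grin3ba of −0.10 (95% interval −0.70 to 0.50). The 3 genes together had 9.83 and 9.75 CPM in nexn-/- libraries, against 13.3 and 12.0 CPM in nexn+/+ libraries. None was called, the intervals reach past the fold limit, and the difference between GluN3 and the other NMDA genes was not tested.

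Among group I metabotropic receptors, the copies for mGlu5 differed. grm5a had 5.38 and 6.52 CPM in nexn-/- libraries, against 16.4 and 14.1 CPM in nexn+/+ libraries (log2(FC) −1.35, SE 0.18, adjusted p = 0.00264, edgeR). In mammals mGlu5 is prominent in forebrain neurons and in glia. grm5b had 1.08 and 1.14 CPM in nexn-/- libraries, against 0.680 and 0.857 CPM in nexn+/+ libraries. It was the only member with both nexn-/- libraries above both nexn+/+ libraries, but was not called (log2(FC) 0.52, SE 0.41, adjusted p = 0.362, edgeR) and had between 12 and 26 counts.

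Group II receptors, mGlu2 and mGlu3, mostly restrain transmitter release. grm2b had 40.1 and 39.1 CPM in nexn-/- libraries, against 69.1 and 68.9 CPM in nexn+/+ libraries (log2(FC) −0.80, SE 0.10, adjusted p = 0.00204, edgeR). grm2a had 14.2 and 13.5 CPM in nexn-/- libraries, against 20.8 and 20.3 CPM in nexn+/+ libraries (log2(FC) −0.57, SE 0.13, adjusted p = 0.0140, edgeR). Replicates of both genes lay close together. grm3 had 3.99 and 3.85 CPM in nexn-/- libraries, against 2.15 and 4.18 CPM in nexn+/+ libraries, so that the genotypes overlapped (log2(FC) 0.30, SE 0.34, adjusted p = 0.536, edgeR). Its log2(FC) moved to −0.090 when nexn+/+ replicate 1 was left out and to 0.86, with a call as higher, when nexn+/+ replicate 2 was.

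Of the group III genes, 4 of 5 were called lower (median log2(FC) −0.59). grm6b, a gene of mGlu6, the glutamate receptor with which retinal ON bipolar cells read photoreceptors, had 20.2 and 19.7 CPM in nexn-/- libraries, against 42.8 and 49.4 CPM in nexn+/+ libraries (log2(FC) −1.21, SE 0.12, adjusted p = 0.00130, edgeR). grm8b had 9.65 and 9.27 CPM in nexn-/- libraries, against 22.2 and 20.7 CPM in nexn+/+ libraries (log2(FC) −1.18, SE 0.13, adjusted p = 0.00171, edgeR). mGlu8, like mGlu4, sits on axon terminals and limits release. grm4 had 15.7 and 16.7 CPM in nexn-/- libraries, against 25.0 and 23.8 CPM in nexn+/+ libraries (log2(FC) −0.59, SE 0.12, adjusted p = 0.0104, edgeR). grm8a had 14.5 and 15.5 CPM in nexn-/- libraries, against 23.1 and 20.9 CPM in nexn+/+ libraries (log2(FC) −0.55, SE 0.13, adjusted p = 0.0173, edgeR).

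grm8a was the called member with the weakest separation. It had the highest TPM of its group, and there the genotypes overlapped, with 9.27 and 8.70 TPM in nexn-/- libraries, against 9.26 and 11.6 TPM in nexn+/+ libraries. Its effective transcript length, worked out per library from the deposited counts and FPKM values, was 1837 and 2044 nt in nexn-/- libraries, against 2362 and 2020 nt in nexn+/+ libraries. With this length as an offset grm8a was no longer called, and 27 members were. Its call was also lost without nexn+/+ replicate 1. Of the 28 called members, the other 27 kept both nexn-/- libraries below both nexn+/+ libraries in TPM, which comes from the same reads. Among the 8 members not called this held for 1, so that 28 of 36 members separated in TPM, against 32 in CPM. The share over all genes was not computed in TPM. grm6a had 2.65 and 2.36 CPM in nexn-/- libraries, against 1.87 and 3.33 CPM in nexn+/+ libraries, and was not called (log2(FC) −0.06, 95% interval −0.90 to 0.78).

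**Figure D2:**
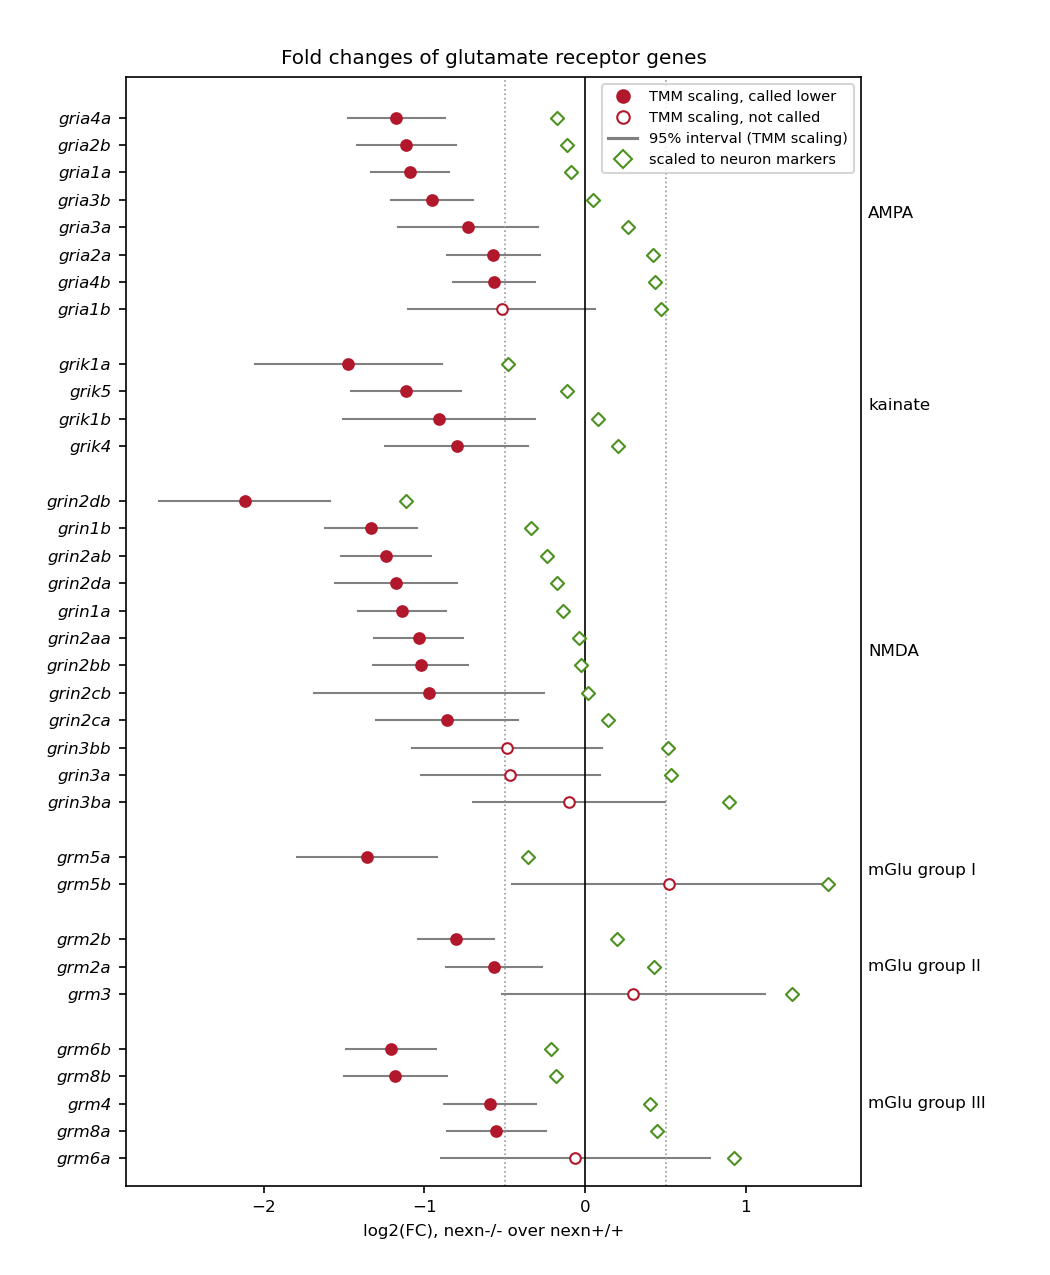
log2(FC) of nexn-/- over nexn+/+ for 34 members. Circles give the TMM-scaled estimate with its 95% interval (filled where called lower), diamonds the estimate after scaling to neuron markers, and dotted lines the fold limit of 0.5. Filled circles run from −2.12 (grin2db) to −0.55 (grm8a), and the diamonds lie around 0 (median over all 36 members 0.064).

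Genes listed in capitals fell outside the symbol rule and were not counted as members. GRIK2, for the kainate subunit GluK2, had 8.61 and 8.88 CPM in nexn-/- libraries, against 29.6 and 26.1 CPM in nexn+/+ libraries, and was called lower (log2(FC) −1.67, SE 0.14, adjusted p = 0.00106, edgeR). GRM7 lay just outside the limits (log2(FC) −0.48, adjusted p = 0.0502, edgeR), and GRIK3 (log2(FC) −0.27) and GRIN2B (log2(FC) −0.10) were not called. With these 4 genes the count was 29 called lower of 40.

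Summed by class, the receptor classes given here were lower in nexn-/- embryos without overlap. The 12 NMDA genes summed to 344 and 330 CPM in nexn-/- libraries, against 773 and 759 CPM in nexn+/+ libraries. The 8 AMPA genes summed to 247 and 238 CPM in nexn-/- libraries, against 428 and 453 CPM in nexn+/+ libraries. The 4 kainate genes summed to 35.6 and 34.6 CPM in nexn-/- libraries, against 71.7 and 74.9 CPM in nexn+/+ libraries. The class sums in nexn-/- embryos were thus 44.0% (NMDA), 55.0% (AMPA) and 47.9% (kainate) of those in nexn+/+ embryos. For metabotropic receptors these percentages were 61.9% in group II and 54.1% in group III. In TPM the nexn-/- sums were 53.5% (NMDA), 60.0% (AMPA), 55.6% (kainate), 72.7% (group II) and 67.4% (group III) of those in nexn+/+ embryos. The falls were thus smaller in TPM in each of these classes. With 2 libraries per genotype an exact two-sided permutation test of a single sum cannot give a p below 0.33, so no test is given for the sums.

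In these bulk samples, fewer cells of a type and less RNA per cell cannot be told apart. General neuron markers were lower by a like amount: 14 of 17 were called lower, with a median log2(FC) of −0.92. The summed level of the list was 2094 and 2056 CPM in nexn-/- libraries, against 4283 and 4014 CPM in nexn+/+ libraries. snap25b, a protein of the vesicle fusion machinery, had 134 and 141 CPM in nexn-/- libraries, against 370 and 355 CPM in nexn+/+ libraries. gap43, a growth cone protein and the neuron marker with the highest TPM, had a log2(FC) of −1.12. Photoreceptor markers were lower too, with 24 of 28 called, as were 4 of 5 bipolar cell markers and 5 of 8 radial glia markers. Of 15 skeletal muscle markers, 0 were called lower and 1 higher, while 12 had a log2(FC) below 0. Their nexn+/+ libraries lay far apart, with sums of 107321 and 44816 CPM, so changes in this list were hard to call. The call as higher was for an entry of myhz1.1 (log2(FC) 2.21), of which another entry had −0.49 and was not called.

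Set against the neuron marker sum, the members as a whole did not separate the genotypes. Their sum was 36.9% and 36.3% of the neuron marker sum in nexn-/- libraries, against 35.9% and 38.8% in nexn+/+ libraries. NMDA genes made up 16.4% and 16.1% of the neuron marker sum in nexn-/- libraries, against 18.0% and 18.9% in nexn+/+ libraries. AMPA genes made up 11.8% and 11.6% in nexn-/- libraries, against 9.99% and 11.3% in nexn+/+ libraries. NMDA genes thus lay lower and AMPA genes higher relative to the markers. Group II metabotropic genes also lay higher, with 2.78% and 2.74% in nexn-/- libraries, against 2.15% and 2.33% in nexn+/+ libraries. Group III genes made up 2.99% and 3.09% in nexn-/- libraries, against 2.68% and 2.94% in nexn+/+ libraries. Relative to the markers both groups thus lay higher, while the kainate members overlapped. For AMPA and group III genes, however, the gap between genotypes was smaller than that between the nexn+/+ libraries. These class differences were not tested. The sums cover members only, so the kainate overlap holds without GRIK2 and GRIK3, which are listed in capitals. GRIK2 had 8.61 and 8.88 CPM in nexn-/- libraries, against 29.6 and 26.1 CPM in nexn+/+ libraries, while GRIK3 overlapped. A kainate sum with both genes was not computed, so the overlap is that of the members only and not of the kainate genes as a whole.

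**Figure D3:**
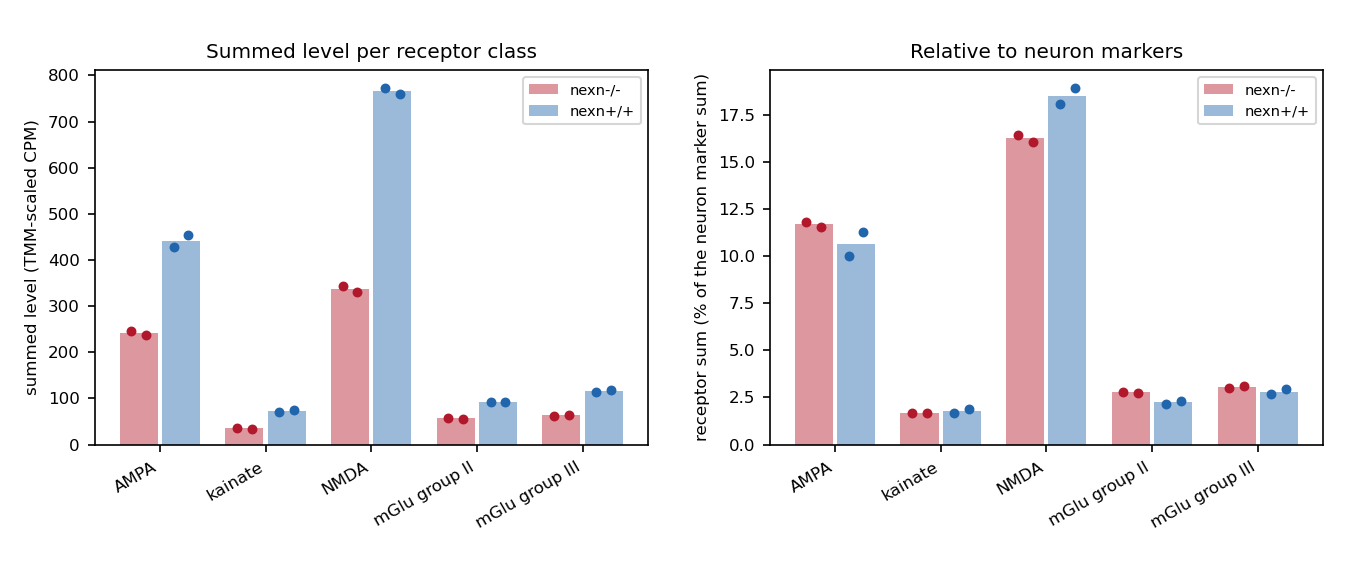
Left, summed level of the members of 5 receptor classes in TMM-scaled CPM, without the genes listed in capitals (GRIK2, GRIK3, GRIN2B and GRM7). Right, the same sums as a percentage of the summed level of the neuron markers. Bars are means over 2 libraries and points the libraries, with nexn-/- in red and nexn+/+ in blue. Each class separates on the left (NMDA 344 and 330 against 773 and 759 CPM). On the right NMDA lies lower in red, AMPA and groups II and III higher, and the kainate members, without GRIK2 and GRIK3, overlap. For AMPA and group III the gap on the right is smaller than that between the blue points.

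A fit in which the libraries were scaled to the neuron markers was added after the data had been seen. In it 1 of 36 members was called lower (grin2db) and 4 higher (grin3ba, grm6a, grm3 and grm5b), while 0.768% of all genes tested were called lower and 74.7% higher. The median of all genes moved to 1.02 in this fit and that of the members to 0.064. A change of scaling shifts all genes by nearly the same amount, so the distance between the members and the other genes had to stay about the same. grin2db had a log2(FC) of −1.11 (SE 0.22, adjusted p = 0.00209, edgeR) relative to the neuron markers, and GRIK2, outside the symbol rule, had −0.67 (SE 0.15, adjusted p = 0.00377, edgeR). The other genes listed in capitals were called higher in this fit, GRIK3 with a log2(FC) of 0.73, GRIN2B with 0.90 and GRM7 with 0.51. The part of neuron content in the members' changes was not tested.

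The makeup of the classes was compared as shares of the TPM of their members, without the genes listed in capitals. GluA2 took 35.8% and 34.0% of AMPA TPM in nexn-/- libraries, against 33.4% and 35.0% in nexn+/+ libraries, which overlap. GluN1 took 76.2% and 76.6% of NMDA TPM in nexn-/- libraries, against 75.5% and 78.3% in nexn+/+ libraries, which overlap as well. GluN3 took 4.16% and 5.21% of NMDA TPM in nexn-/- libraries, against 3.79% and 2.45% in nexn+/+ libraries, which do not overlap. The gap between genotypes was smaller, however, than that between the libraries of either genotype. The summed GluN3 level overlapped, with 3.76 and 4.43 TPM in nexn-/- libraries, against 5.74 and 4.31 TPM in nexn+/+ libraries. Among the GluN2 members, GluN2D took 17.4% and 17.2% of TPM in nexn-/- libraries, against 25.7% and 20.8% in nexn+/+ libraries. GluN2C took 16.9% and 17.6% in nexn-/- libraries, against 14.2% and 14.5% in nexn+/+ libraries. The GluN2D share was lower and the GluN2C share higher in both nexn-/- libraries. For GluN2D the gap between genotypes was smaller than that between the nexn+/+ libraries. GRIN2B, left out of these shares, had 2.49 and 1.85 TPM in nexn-/- libraries, against 1.99 and 2.12 TPM in nexn+/+ libraries. Shares with GRIN2B were not computed, and no share was tested.

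The shares of paralogues were compared within pairs. In 14 pairs of copies, the share of the a copy in the counts of both overlapped between genotypes in 4 pairs, was higher in both nexn-/- libraries in 6 and lower in 4. With 2 libraries per genotype, an exact two-sided permutation test of a single share cannot give a p below 0.33. No share of separating pairs over other genes was computed, so this count is a description only. gria4a made up 31.1% and 31.9% of gria4 counts in nexn-/- libraries, against 41.6% and 41.0% in nexn+/+ libraries. grm8a made up 60.0% and 62.6% of grm8 counts in nexn-/- libraries, against 51.0% and 50.2% in nexn+/+ libraries. grin2da made up 79.7% and 76.0% of the counts of its pair in nexn-/- libraries, against 63.3% and 67.0% in nexn+/+ libraries. In these 3 pairs, and also in the gria2, grm5 and grm6 pairs, the 95% Wilson intervals of the libraries did not meet between genotypes. These intervals cover counting error only. Reads of near-identical copies can be shared out by RSEM, so shares of paralogues carry that uncertainty.

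**Figure D4:**
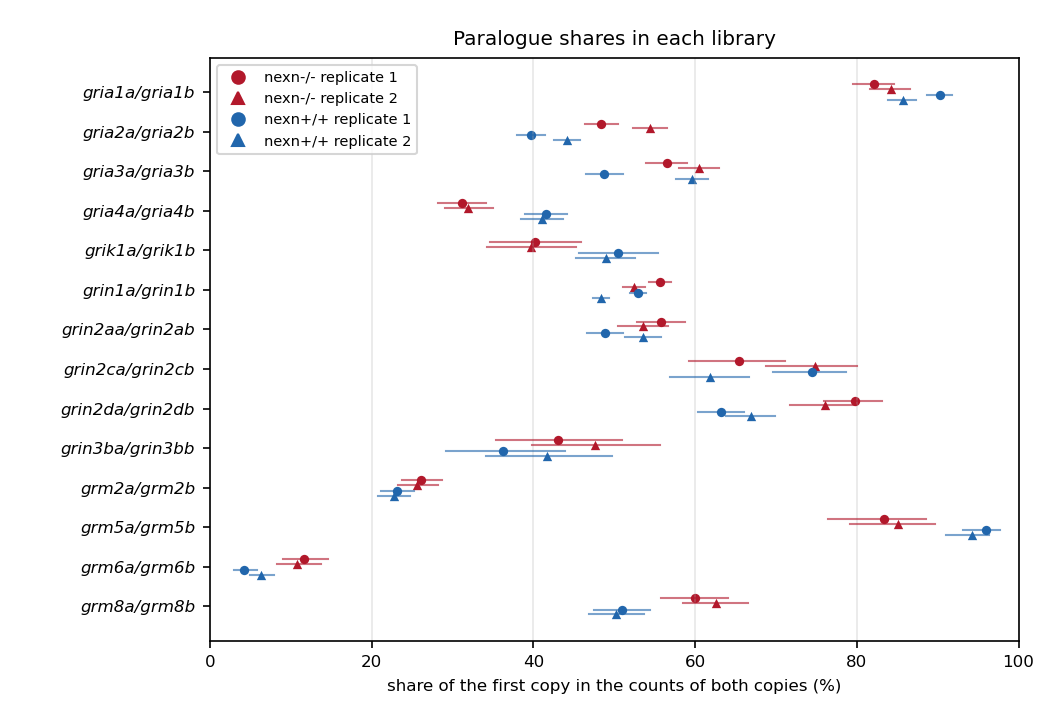
Share of the first copy in the counts of both copies for 14 paralogue pairs, in percent, with 95% Wilson intervals. Red symbols are nexn-/- libraries and blue symbols nexn+/+ libraries (circles replicate 1, triangles replicate 2). The genotypes overlap in 4 pairs. grin2da/grin2db, at 79.7% and 76.0% in red and 63.3% and 67.0% in blue, is among the 10 pairs that separate.

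Genes that work with the receptors were counted in lists. Of 23 auxiliary subunits of AMPA and kainate receptors, which steer their trafficking and gating, 12 were called lower and 0 higher (median log2(FC) −0.90). shisa7b, the list's gene with the highest TPM, had 59.4 and 52.0 CPM in nexn-/- libraries, against 127 and 146 CPM in nexn+/+ libraries (log2(FC) −1.29, SE 0.13, adjusted p = 0.00133, edgeR). cacng7b, a TARP gene, had 2.33 and 2.76 CPM in nexn-/- libraries, against 8.84 and 6.50 CPM in nexn+/+ libraries (log2(FC) −1.59). Of 3 delta receptor genes, 2 were called lower, grid1b (log2(FC) −1.17) and grid1a (log2(FC) −0.93).

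Scaffold and transporter genes were counted likewise, and differences between the lists were not tested. Of 25 scaffold genes of the postsynaptic density, 9 were called lower and 0 higher (median log2(FC) −0.36). syngap1b, a Ras GTPase-activating protein of the postsynaptic density, had 9.92 and 8.53 CPM in nexn-/- libraries, against 23.3 and 25.0 CPM in nexn+/+ libraries (log2(FC) −1.39), and dlg3, the scaffold with the highest TPM, had a log2(FC) of −0.61. Of 20 genes of glutamate transport and supply, 7 were called lower and 1 higher (median log2(FC) −0.19). slc1a2b, for a glutamate transporter that is mainly glial in mammals, had 495 and 493 CPM in nexn-/- libraries, against 973 and 880 CPM in nexn+/+ libraries (log2(FC) −0.91, SE 0.13, adjusted p = 0.00344, edgeR). slc1a3a, which encodes another glial glutamate transporter, was higher, with 29.3 and 29.7 CPM in nexn-/- libraries, against 17.2 and 17.5 CPM in nexn+/+ libraries (log2(FC) 0.77, SE 0.11, adjusted p = 0.00334, edgeR). The largest fall of that list was that of slc1a7b, a transporter of the retina in mammals (log2(FC) −1.54).

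A list of genes that act with mGlu6 or mark bipolar cells was lower beside grm6b, with 8 of 9 genes called lower and a median log2(FC) of −1.25. It is wider than the cascade downstream of mGlu6: cabp5a and cabp5b in it are also counted among the bipolar cell markers. nyx, for the synaptic protein nyctalopin, had 4.62 and 4.2 CPM in nexn-/- libraries, against 15.5 and 15.4 CPM in nexn+/+ libraries (log2(FC) −1.81, SE 0.17, adjusted p = 0.00128, edgeR). gnao1b, for the G protein alpha subunit Go, which other neurons also use, had 139 and 143 CPM in nexn-/- libraries, against 319 and 356 CPM in nexn+/+ libraries (log2(FC) −1.26).

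Receptors of the inhibitory transmitters GABA and glycine gave a point of comparison. Of 31 such genes, 13 were called lower and 0 higher, with a median log2(FC) of −0.67, against 28 of 36 and −0.93 for the glutamate receptor genes. gabrr1, a rho subunit found in retinal bipolar cells, had 3.19 and 2.14 CPM in nexn-/- libraries, against 11.3 and 9.88 CPM in nexn+/+ libraries (log2(FC) −1.99, SE 0.25, adjusted p = 0.00222, edgeR). glrbb, a glycine receptor beta subunit and the gene of highest TPM in the list, had 60.3 and 61.2 CPM in nexn-/- libraries, against 122 and 116 CPM in nexn+/+ libraries (log2(FC) −0.97). The lists were not matched for level. In nexn+/+ libraries the 31 genes summed to 562 and 576 CPM, against 1536 and 1558 CPM for the 36 members, and scarce members were called less often. The difference between the lists was not tested.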

How the data were processed

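RNA-sequencing of 4 libraries of pooled whole embryos was analysed. The members and gene lists were chosen with earlier results of these data known. The submitters' processing notes name STAR, RSEM and GRCz11, with no versions. The authors deposited expected counts per gene, estimated by RSEM and not normalized, and 92.0% to 93.2% of nonzero entries were whole. TPM values were deposited as well, scaled to each library's total and to effective length. FPKM values were also deposited. Effective lengths were worked out from them and the counts, for the length offset and the lengths given for grm8a, and FPKM had no other part in the results. The headings of all 4 tables carry the same library name, so each library was taken from its deposition record.

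Rounded counts were fitted in edgeR 4.0.16 under R 4.3.3 (filterByExpr with a minimum count of 10, TMM, quasi-likelihood test of genotype with no other term, Benjamini-Hochberg adjustment over all 20312 genes tested). The limits are those of the study, which used DESeq2. Other scalings, filters, limits, DESeq2 1.42.0, limma-voom (limma 3.58.1), a length offset, a replicate block and leaving out each library were tried. Replicates differed beyond sampling noise (over all genes, chi-square divided by its degrees of freedom was 5.79 within nexn-/- and 53.8 within nexn+/+). Sums and shares were computed over all genes of a list, medians and calls over those tested. The scripts were tested on simulated data.

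Some members and 1 class are not reported singly here. Otherwise, values per library were given for every called member and, in each class, for the member of highest mean TPM and the largest not called. In each list but skeletal muscle, the strongest called rise and fall and the gene of highest mean TPM were named. In the skeletal muscle list only the called rise was named. Some genes of the lists have a log2(FC) only. No sequences or coordinates were used, since the reference tables are of another build. All 36 member identifiers were found in a table of gene names.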

Additional observations from a re-analysis of the deposited data

How the results depend on the processing

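The direction of the members held under TMM, DESeq2, limma-voom, both filters and the replicate block, each with 28 members called lower. The block left 6158 genes called, against 6223 without it. Same-numbered libraries did not deviate together (correlation −0.02), so the numbers were not taken to pair the libraries, and the block changed no member's call. Scaling mattered more. Members called lower numbered 20 with library size, 22 with the upper quartile and 18 with rpl13 as reference. They numbered 16 with a log2(FC) limit of 1 (3140 genes called in all). With neuron marker scaling 1 member was called lower and 4 higher, and the members' median was 0.064. Of all genes tested, the share called lower was 13.9% with TMM and a limit of 0.5. In the settings above it was, in turn, 9.25%, 10.9%, 7.22%, 4.54% and 0.768%. The median log2(FC) of all genes was 0.17, 0.13 and 0.26 with library size, upper quartile and rpl13, and higher calls made up 70.2%, 64.9% and 77.6% of all calls, against 54.5% with TMM. The members' median was −0.79 with library size, −0.83 with the upper quartile and −0.70 with rpl13. In the same order of settings, the class median was −0.70, −0.74 and −0.61 for AMPA, −0.87, −0.91 and −0.78 for kainate, −0.42, −0.47 and −0.33 for metabotropic group II and −0.45, −0.49 and −0.36 for group III genes. For NMDA genes it was −0.88 with library size and −0.79 with rpl13. With the length offset it was −0.91 for AMPA and −0.66 for group II genes.

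With one library left out, genes called ranged from 4 to 8511, members called lower from 0 to 27 and members called higher from 0 to 1. Calls in each of these fits rest on the spread of the genotype that kept both libraries, so their counts are not like for like. The members' median ranged from −0.99 to −0.89. The class medians ranged from −0.94 to −0.81 (AMPA), −1.09 to −0.99 (kainate), −1.17 to −0.91 (NMDA), −0.61 to −0.53 (group II) and −0.64 to −0.55 (group III).

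With neuron marker scaling 16 of 36 members were below 0, against 33 with TMM, and called members were among those that turned. Under the other settings the log2(FC) of grin3ba was 0.048, 0.0026 and 0.13, that of grm6a 0.067, 0.040 and 0.16 and that of GRIN2B 0.057, 0.0083 and 0.15 with library size, upper quartile and rpl13. The median of glutamate transport and supply was 0.047 with rpl13. With one library left out, log2(FC) ranged from −0.41 to 0.42 (grm6a), −0.090 to 0.86 (grm3) and −0.30 to 0.085 (GRIN2B). The causes were not tested. Precision was lowest in the scarce members, the median SE being 0.30 for the 8 that were not called, against 0.13 for the 28 called lower.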

Other observations

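Glial markers moved in both directions. Of 8 radial glia markers, 5 were called lower (median log2(FC) −0.67). fabp7a, a fatty acid binding protein of radial glia with both the highest TPM and the largest fall of the list, had 523 and 529 CPM in nexn-/- libraries, against 964 and 918 CPM in nexn+/+ libraries (log2(FC) −0.84, SE 0.13, adjusted p = 0.00403, edgeR). Of 8 myelinating glia markers, 2 were called lower and 1 higher. mpz, a myelin adhesion protein, had 2.69 and 3.59 CPM in nexn-/- libraries, against 12.0 and 9.93 CPM in nexn+/+ libraries (log2(FC) −1.80, SE 0.23, adjusted p = 0.00236, edgeR). sox10, a transcription factor of neural crest cells and oligodendrocytes, had 27.6 and 33.5 CPM in nexn-/- libraries, against 17.5 and 17.0 CPM in nexn+/+ libraries (log2(FC) 0.83, SE 0.14, adjusted p = 0.00501, edgeR). mbpb, for myelin basic protein, was not called (log2(FC) 0.27).

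In the retina lists, pde6ha, a phosphodiesterase subunit of cones, had 25.6 and 31.1 CPM in nexn-/- libraries, against 182 and 226 CPM in nexn+/+ libraries (log2(FC) −2.84, SE 0.16). opn1lw2, a red cone opsin, had a log2(FC) of −1.14. Among bipolar cell markers, vsx1, a transcription factor of bipolar cells, had 103 and 109 CPM in nexn-/- libraries, against 217 and 280 CPM in nexn+/+ libraries (log2(FC) −1.23, SE 0.15), and cabp5a, a calcium binding protein, had a log2(FC) of −1.29.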
